A study of Mus musculus with 41 samples.

Results

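The vanins Vnn1 and Vnn3 were followed across the lungs and livers of female mice that had inhaled nanosized titanium dioxide (nanoTiO2) or air. They are 2 of the 27962 gene names on the mRNA arrays, were taken by their names in the array design, and were chosen by their higher log2 ratios in exposed than in control lungs. Each is measured by 1 probe on 1 spot, so that a second probe could not be set beside either of them. The lung difference between exposed and control mice is therefore given below as a description without a test. The liver arrays were not used in the choice. The calls in lung rest on the spread within the lung groups too, so that this spread is not independent of the choice. The control lungs were part of it, so that the comparison of the organs is given without a test as well.

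Vanins are pantetheinases, enzymes that split pantetheine, a breakdown product of coenzyme A, into pantothenate (vitamin B5) and the aminothiol cysteamine. Cysteamine feeds into taurine synthesis and acts on the thiol balance of tissues, and mice without Vnn1 are known for lower tissue cysteamine and weaker gut inflammation. In liver, Vnn1 is a known target of PPARα, the nuclear receptor that switches on fatty acid oxidation during fasting. Vnn3 encodes a related vanin and lies beside Vnn1 on the same chromosome.

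All animals were C57BL/6 females (substrain C57BL/6BomTac in the study's methods) that had been time-mated and had not become pregnant, and the labels of the mRNA arrays give their age only as a stage equivalent to GD4. Exposed mice inhaled nanoTiO2 at 40 mg/m3 for 1 hour on each of 11 days, control mice breathed air in the same way, and both were killed 5 days after the last exposure. Whole pieces of lung came from 7 exposed and 6 control mice and pieces of liver from 7 exposed and 8 control mice, of which 12 mice gave both organs. Every array paired Cy5-labelled RNA of a single mouse with Cy3-labelled reference RNA pooled from 11 mouse cell lines, so that the log2 ratio is the level of the organ RNA relative to that reference.

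Defining markers matched the organ labels. The summed Cy5 level of 10 lung markers was 1109790 to 1617560 on lung arrays and 61933 to 83054 on liver arrays, and that of 15 hepatocyte markers was 1300 to 19994 on lung arrays and 1400800 to 1747990 on liver arrays. In Cy5, 55.1% to 70.5% of the spots of an array exceeded background clearly by the scanner software's call. The organs were hybridized on separate slides and read with different software versions, so that organ and slide cannot be told apart. On every slide the exposed mice took positions 1 and 2 and the control mice positions 3 and 4. Exposure and position on the slide cannot be told apart either. Lung slide 4 held exposed mice only.

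The probes are shown first, because each gene's values rest on a single oligonucleotide of 60 bases. The coordinates are those of the lung arrays' design, which names build mm7. The Vnn1 probe lies at chr10:23655645-23655704, and bases 21 to 50 of it are printed with the polyadenylation signal hexamer in capitals. The Vnn3 probe is printed whole and maps to chr10:23618542-23620871, a stretch of 2330 bases, so that its 60 bases join pieces that are apart in the genome. The longest run of letters that the probes share on either strand is 6 bases.
Vnn1 probe: cgggtgtaagcaAATAAAgtgcctcttctt
Vnn3 probe: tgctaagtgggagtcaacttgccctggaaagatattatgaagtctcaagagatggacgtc

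In RefSeq's annotation of GRCm38.p6 the genes stand next to each other on chromosome 10, Vnn3 at chr10:23851462-23869843 and Vnn1 at chr10:23894688-23905344, with 24844 bases between them. The promoter of Vnn3 (RefSeq, GRCm38.p6, plus strand, chr10:23851212-23851511) runs from 250 bases before the start site through the first 50 bases of the gene and is shown because the pair moved together in lung. Capitals mark the matches of 3 motifs searched on both strands, CCAAT, TTGCNNAA (the C/EBP type) and TGACNNNGC (the antioxidant response element type).
Vnn3 promoter: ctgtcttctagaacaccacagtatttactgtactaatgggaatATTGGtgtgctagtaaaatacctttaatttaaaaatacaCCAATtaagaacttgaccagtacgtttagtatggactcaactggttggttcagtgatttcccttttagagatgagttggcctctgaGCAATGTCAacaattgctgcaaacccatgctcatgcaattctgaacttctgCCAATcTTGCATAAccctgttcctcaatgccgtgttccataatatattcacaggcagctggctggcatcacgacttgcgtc

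CCAAT had 3 matches in this window, beginning at -207, -168 and -31 relative to the start site, and occurred in 37.4% of 32851 promoters of the same length. TTGCNNAA had 1 match at -25 and occurred in 10.8% of promoters, and TGACNNNGC had 1 match on the minus strand at -82 and occurred in 12.4%. None of these matches overlap. The letters TGANTCA (AP-1, in 7.81% of promoters), TTCNNNGAA (STAT, 8.3%) and AGGTCA (the core that nuclear receptors such as PPARα bind, 16.3%) had no match in the window.

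In the lung, Vnn1 was 2.58-fold and Vnn3 1.89-fold higher in exposed than in control mice, and for both genes every exposed lung lay above every control lung. The log2 ratios of Vnn1 in exposed lungs were 3.64, 3.24, 3.03, 3.32, 3.09, 3.49 and 2.98 in mice 1, 7, 12, 13, 19, 20 and 23. Those in control lungs were 1.82, 1.89, 1.89, 1.75, 2.01 and 1.99 in mice 24, 26, 27, 29, 32 and 34. The control lungs lay close together and the exposed lungs spread more widely, with a gap of 0.97 between the lowest exposed and the highest control lung. The means were 3.26 ± 0.25 (SD, n = 7) and 1.89 ± 0.10 (SD, n = 6), a difference of 1.37 on the log2 scale (SE 0.097, interval of 95% from 1.16 to 1.57).

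Vnn3 followed with a smaller step. Its log2 ratios in exposed lungs were 2.26, 2.27, 2.11, 2.60, 2.31, 2.46 and 2.41 in the same order of mice. In control lungs they were 1.20, 1.43, 1.37, 1.35, 1.805 and 1.40. Mouse 32 stood above the other control lungs, and a gap of 0.30 still separated it from the lowest exposed lung. The spot of control mouse 29 was marked by the scanner software for its Cy5 local background and was kept, and without that mouse the difference was 0.90. The means were 2.35 ± 0.16 (SD, n = 7) and 1.43 ± 0.20 (SD, n = 6), a difference of 0.92 on the log2 scale (SE 0.091, interval of 95% from 0.73 to 1.11).

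**Figure D1:**
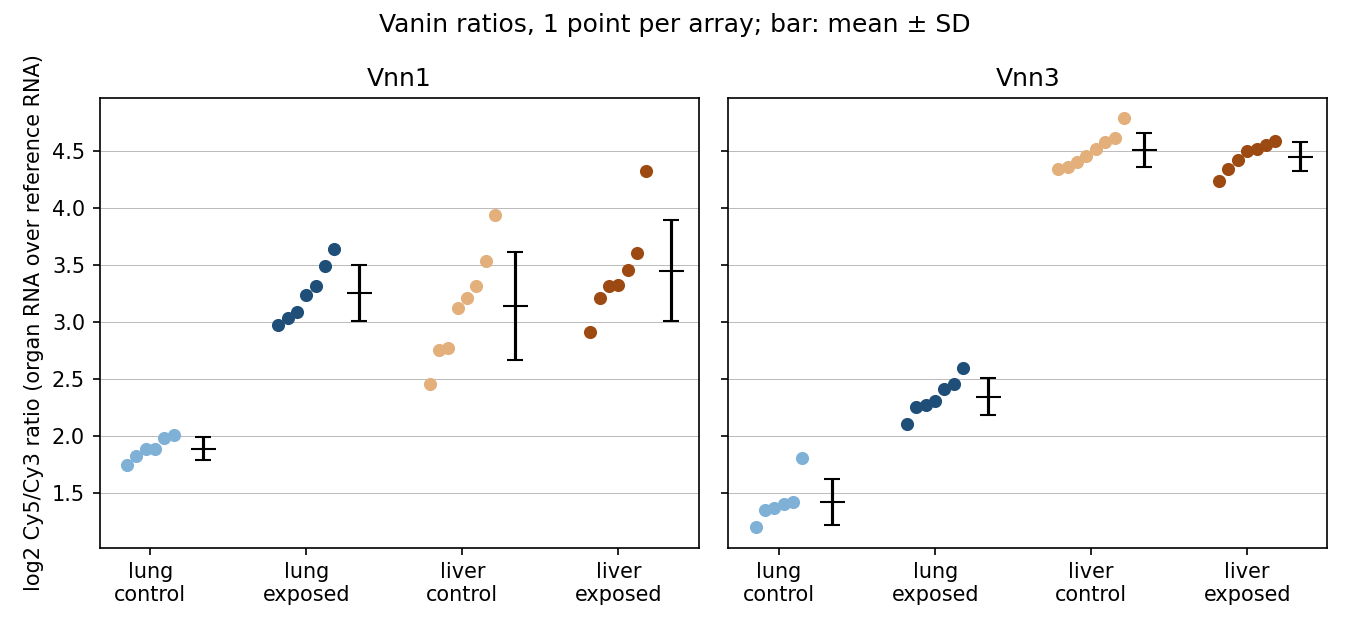
Log2 Cy5/Cy3 ratios of Vnn1 (left) and Vnn3 (right), with 1 point per array in each of the 4 groups and the mean ± SD beside the points. Exposed lungs lie above all control lungs for both genes, whereas exposed and control livers overlap.

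By size of the lung difference Vnn1 took place 7 and Vnn3 place 30 of 41172 probes. In this fit 91 probes (0.221%) were called, of which 82 (0.199%) were higher in exposed lungs and 9 (0.0219%) lower, and both vanins were among the 82. The count depended on the processing, with 7 probes called after median centring and 15 with the background model fitted on all spots. Complete separation of exposed above control lungs was seen for 111 of 41174 probes (0.270%). These places are the ground on which the pair was chosen.

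The difference lay in the channel of the mouse RNA. On the scale of Cy5 levels alone, exposed lungs were 2.52-fold higher than control lungs for Vnn1 and 1.83-fold higher for Vnn3. The reference channel differed by -0.03 for Vnn1 and by -0.05 for Vnn3 on the log2 scale. Cy5 was well above background and below saturation on all 28 arrays for both genes, so that neither gene's level in lung or liver is only a bound.

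For Vnn3 the reference itself was dim on the lung arrays. Its Cy3 signal was well above background on only 2 of 7 exposed and 1 of 6 control lung arrays, with raw signals of 60 to 66.5 on exposed arrays and of 56 to 59 on 5 of the control arrays. The sixth, control mouse 34, read 99. The ratio of Vnn3 in lung therefore depends on how low Cy3 signals are treated. With the scanner software's processed signals the exposed and control lungs overlapped, at 4.78 ± 0.26 (SD, n = 7) and 4.54 ± 1.30 (SD, n = 6), a difference of 0.24. Those processed Cy3 signals were 27.3 to 55.2 on exposed arrays, 8.48 to 20.2 on 5 control arrays and 167 for mouse 34. The processed Cy5 signals of Vnn3 did not overlap, at 852 to 1211 on exposed and 350 to 684 on control arrays. Vnn1, whose Cy3 signal was well above background on all lung arrays, gave a difference of 1.43 with the processed signals.

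Within slides the lung difference kept its direction for both genes. On slides 1, 2 and 3, exposed minus control was 1.59, 1.22 and 1.20 for Vnn1 and 0.95, 0.74 and 0.85 for Vnn3 on the log2 scale. Slide 4 had no control lung.

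**Figure D2:**
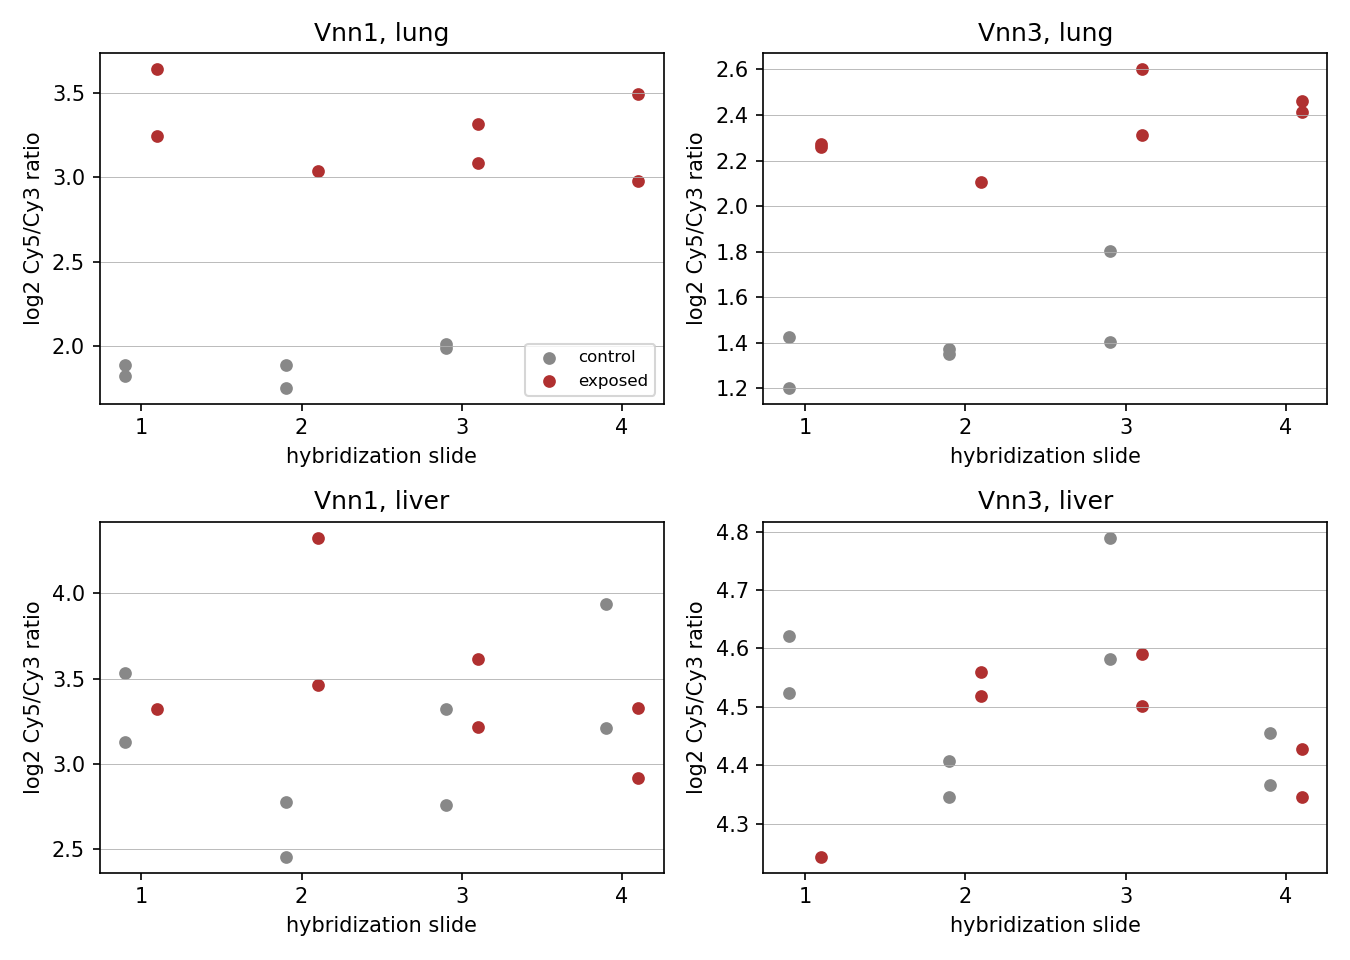
Log2 Cy5/Cy3 ratios of Vnn1 and Vnn3 by hybridization slide, lung in the upper and liver in the lower panels, with 1 point per array and exposed mice beside control mice. On the 3 lung slides that hold both groups every exposed array lies above the control arrays of its slide, while in liver the order changes from slide to slide.

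The liver of the same experiment gave no such step. Vnn1 in exposed livers had log2 ratios of 3.32, 3.46, 4.32, 3.21, 3.61, 2.92 and 3.32 in mice 1, 9, 12, 13, 19, 20 and 23. In control livers it had 3.13, 3.53, 2.46, 2.77, 2.76, 3.32, 3.94 and 3.21 in mice 24, 26, 27, 29, 32, 34, 37 and 45. The groups overlapped except for exposed mouse 12, which stood above every control liver. The means of 3.45 ± 0.44 (SD, n = 7) and 3.14 ± 0.47 (SD, n = 8) differed by 0.31 on the log2 scale, with an interval of 95% from -0.13 to 0.76 (limma, unadjusted p = 0.16, adjusted p = 1.00; exact two-sided permutation p = 0.21 over 6435 splits). The interval holds 0 and reaches up to a 1.69-fold higher level in exposed livers. With the background model fitted on all spots the difference was 0.97 (1.96-fold; limma, adjusted p = 0.51).

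Vnn3 in liver was far steadier in this processing. The lowest, median and highest log2 ratios were 4.24, 4.50 and 4.59 in exposed livers and 4.35, 4.49 and 4.79 in control livers, so that the groups overlapped almost completely. Their means, 4.45 ± 0.12 (SD, n = 7) and 4.51 ± 0.15 (SD, n = 8), differed by -0.06 on the log2 scale, with an interval of 95% from -0.20 to 0.09 (limma, adjusted p = 1.00; exact two-sided permutation p = 0.45). With the scanner software's processed signals Vnn3 was at 6.25 ± 0.33 (SD, n = 7) and 6.60 ± 0.37 (SD, n = 8), a difference of -0.35. The SDs of Vnn1 were then 0.44 and 0.50, so that the genes were less far apart in spread. No probe was called between exposed and control livers by limma (0% of 41174), and 1003 had an unadjusted p under 0.05.

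Within liver slides Vnn1 differed between exposed and control mice by -0.01, 1.28, 0.37 and -0.45, and Vnn3 by -0.33, 0.16, -0.14 and -0.02, on the log2 scale. The direction was not shared by the slides for either gene. In liver 0 of 15 hepatocyte, 0 of 13 macrophage and 1 of 13 neutrophil markers had positive differences, beside 48.3% of all probes. Their medians were -0.21, -0.15 and -0.20, with no call, and their part in the vanin values was not tested.

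In control mice the ratios of both vanins were lower in lung than in liver, and the step was larger for Vnn3. Control lungs had a 2.38-fold lower ratio of Vnn1 than control livers, a difference of -1.25 on the log2 scale with an interval of 95% from -1.62 to -0.87. Vnn3 was 8.48-fold lower in control lungs, a difference of -3.08 with an interval of 95% from -3.25 to -2.92. For both genes every control lung lay below every control liver. The share of all probes with such a separation was not computed. Of 41172 probes 29.6% were called higher in control liver than in control lung by limma, so that a step of this direction is common. The reference channel differed between control lungs and control livers by 0.23 for Vnn1 and by -0.12 for Vnn3 on the log2 scale. By Cy5 levels alone the differences were -1.02 (2.03-fold) for Vnn1 and -3.20 (9.20-fold) for Vnn3. The sizes moved with the processing. With the background model fitted on all spots the difference was -0.68 (1.60-fold) for Vnn1 and -2.28 (4.84-fold) for Vnn3. Vnn3, whose reference signal was well above background on only 1 of 6 control lung arrays, was 4.17-fold lower by the processed signals and 10.8-fold lower in the authors' table.

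There were 6 control mice with both organs, and lung minus liver within these 6 mice was negative in 6 of 6 for both genes. For Vnn1 the within-mouse differences were -1.31, -1.65, -0.57, -1.02, -0.75 and -1.33 in mice 24, 26, 27, 29, 32 and 34, with a mean of -1.10 ± 0.40 (SD, n = 6). For Vnn3 the differences ran from -3.39 to -2.78, with a mean of -3.12 ± 0.23 (SD, n = 6). The ratio of either vanin was thus lower in the lung of a control mouse than in its own liver.

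In exposed mice lung and liver had no common order for Vnn1. Lung minus liver was 0.32, -1.29, 0.10, -0.53, 0.57 and -0.35 in mice 1, 12, 13, 19, 20 and 23, above 0 in 3 of 6 mice. The livers spread more widely than the lungs, with mouse 12 highest and mouse 20 lowest of the exposed livers. For Vnn3 the within-mouse difference stayed between -2.41 and -1.88 in the 6 exposed mice, with a mean of -2.08 ± 0.19 (SD, n = 6). These differences hold the lung contrast that chose the pair and were not tested against the control mice.

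**Figure D3:**
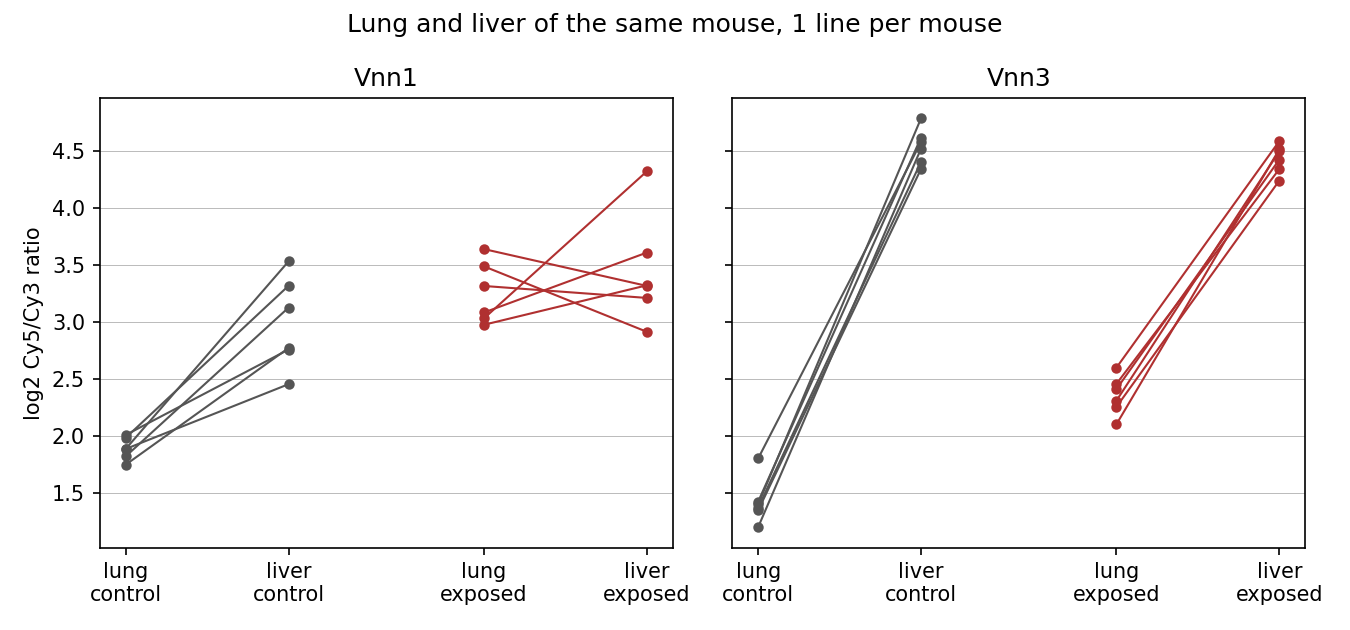
Lung and liver log2 Cy5/Cy3 ratios of the same mouse, joined by 1 line per mouse, for Vnn1 (left) and Vnn3 (right), control mice in grey and exposed mice in red. All 6 control lines rise from lung to liver, the exposed lines of Vnn1 run both ways, and those of Vnn3 all rise.

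By the mean log2 ratio, the order of the groups for Vnn1 from low to high was control lung, control liver, exposed lung and exposed liver. Control livers, exposed lungs and exposed livers overlapped one another in this order. For Vnn3 the order was control lung, exposed lung, exposed liver and control liver, and the liver groups overlapped. By the mean Cy5 level alone the places of groups that overlapped changed. Exposed lung and exposed liver then stood level for Vnn1, both at 10.58 on the log2 scale, and for Vnn3 exposed liver stood above control liver, at 10.86 and 10.82.

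The Cy5 levels can be put as shares of the control livers' mean Cy5 level. Control lungs held 42.5% to 52.8% of it for Vnn1, exposed lungs 96.0% to 142% and exposed livers 76.4% to 227%. For Vnn3, control lungs held 8.97% to 15.2%, exposed lungs 16.4% to 23.4% and exposed livers 89.9% to 118%. These levels hold the added offset of 50, which raises the low shares of Vnn3 in lung. The scanner software's processed Cy5 signals of Vnn3 were 350 to 684 in control lungs and 852 to 1211 in exposed lungs. In control livers they were 6363 to 8887. Exposed lungs lay within the range of the livers for Vnn1 and below it for Vnn3.

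Markers of other cell types were measured in the same lungs. RNA from whole pieces of tissue cannot tell a change in the number of cells of a type from a change in RNA per cell. All 15 hepatocyte markers had positive differences (median 0.76 on the log2 scale, up to 1.14 for Fgb, a fibrinogen chain), although none was called. Their summed Cy5 level in exposed lungs was 0.102% to 1.20% of that in control livers, against 0.0777% to 0.167% in control lungs. The level of each gene holds the added offset of 50, so that the low sums lie near the floor. Ttr, Fga, Cps1, Apoc3 and Apoa1 were well above background on only 1, 2, 3, 5 and 7 of 13 lung arrays, the other markers on 11 to 13. In exposed mouse 1, which had the highest sum at 1.20%, Vnn1 stood at 138% of the control liver level. In mouse 20 the sum was 0.120%, within the range of the control lungs, and Vnn1 stood at 142%. Vnn3 in mouse 20 was at 23.2% of the control liver level, as against 16.9% in mouse 1. Mouse 12 had the lowest sum of the exposed lungs at 0.102%. Its Vnn1 at 96.0% and its Vnn3 at 16.4% were the lowest of the exposed lungs as well. The part of hepatocyte RNA in the vanin values was not tested.

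Of 13 macrophage markers 11 had positive differences in the lung (median 0.21), beside 50.7% of all probes. While 0.199% of all probes were called higher by limma, 3 of these markers were. These were Ctsk, a lysosomal protease (difference 0.96, adjusted p = 0.00067), Marco, a scavenger receptor that takes up particles (0.57, adjusted p = 0.0093), and Msr1, another scavenger receptor (0.52, adjusted p = 0.019). The summed Cy5 level of the 13 markers overlapped, at 279423 to 380396 in exposed and 297003 to 394518 in control lungs. Of 13 neutrophil markers 3 had positive differences (median -0.23), the lowest being S100a8 at -0.88 and the highest Ltf, lactoferrin, at 0.74, and none was called. Their summed level was 6979 to 29515 in exposed and 16840 to 44412 in control lungs. All 9 heart muscle markers had positive differences (median 0.41, up to 0.78 for Mybpc3), and none was called. The part of macrophages, neutrophils and heart tissue in the vanin values was not tested.

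The remaining marker lists showed no call in lung. Lung markers had a median difference of -0.06, from -0.20 for the club cell protein Scgb1a1 to 0.10 for the surfactant protein Sftpd. The medians were 0.05 for T cell, 0.05 for B cell and 0.18 for ciliated cell markers, beside 0.00 over all probes. T cell markers ran from -0.12 for Cd8a to 0.26 for Cd5, B cell markers from -0.19 for Ms4a1 to 0.23 for Fcer2a, and ciliated cell markers from -0.10 for Spag6 to 0.33 for Dnah5. This Spag6 probe was well above background on only 2 of 13 lung arrays. The probe that the array design names Spag6, now assigned to Spag6l, differed by 0.19.

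The genes around the vanins in metabolism did not show the same step. Genes of coenzyme A synthesis and breakdown were listed together with linked genes such as those of pyrimidine breakdown. This list had a median difference of 0.05 in lung, with 15 of 22 positive and none called. Its values ran from -0.13 for the nucleotide pyrophosphatase Enpp3 to 0.25 for Dpyd, the enzyme that starts pyrimidine breakdown. The 11 genes around cysteamine and taurine, which include genes of cysteine metabolism and of taurine transport and use, had a median of -0.01. They ran from -0.20 for Ggt5, which cleaves glutathione conjugates, to 0.13 for Baat, which joins taurine to bile acids. Baat was well above background on only 3 of 13 lung arrays. The 13 genes of glutathione metabolism had a median of 0.01, from -0.16 for the peroxiredoxin Prdx6 to 0.11 for Gclc, which catalyses the limiting step of glutathione synthesis. No gene of these 3 lists was called in lung or in liver.

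PPARα targets, the group to which Vnn1 belongs in liver, also had no call in lung. Of 24 genes 14 had positive differences, with a median of 0.07. The lowest was the fatty acid binding protein Fabp1 at -0.32, and the highest the fatty acid hydroxylase Cyp4a14 at 0.41, which was well above background on only 5 of 13 lung arrays. In liver the median was 0.03, from -0.31 for Fabp1 to 0.43 for the acyl-CoA thioesterase Acot1. In control mice 18 of the 24 were called higher in liver than in lung by limma, and none higher in lung. Of all 41172 probes 60% were called between control lung and control liver, 29.6% higher in liver and 30.4% higher in lung.

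**Figure D4:**
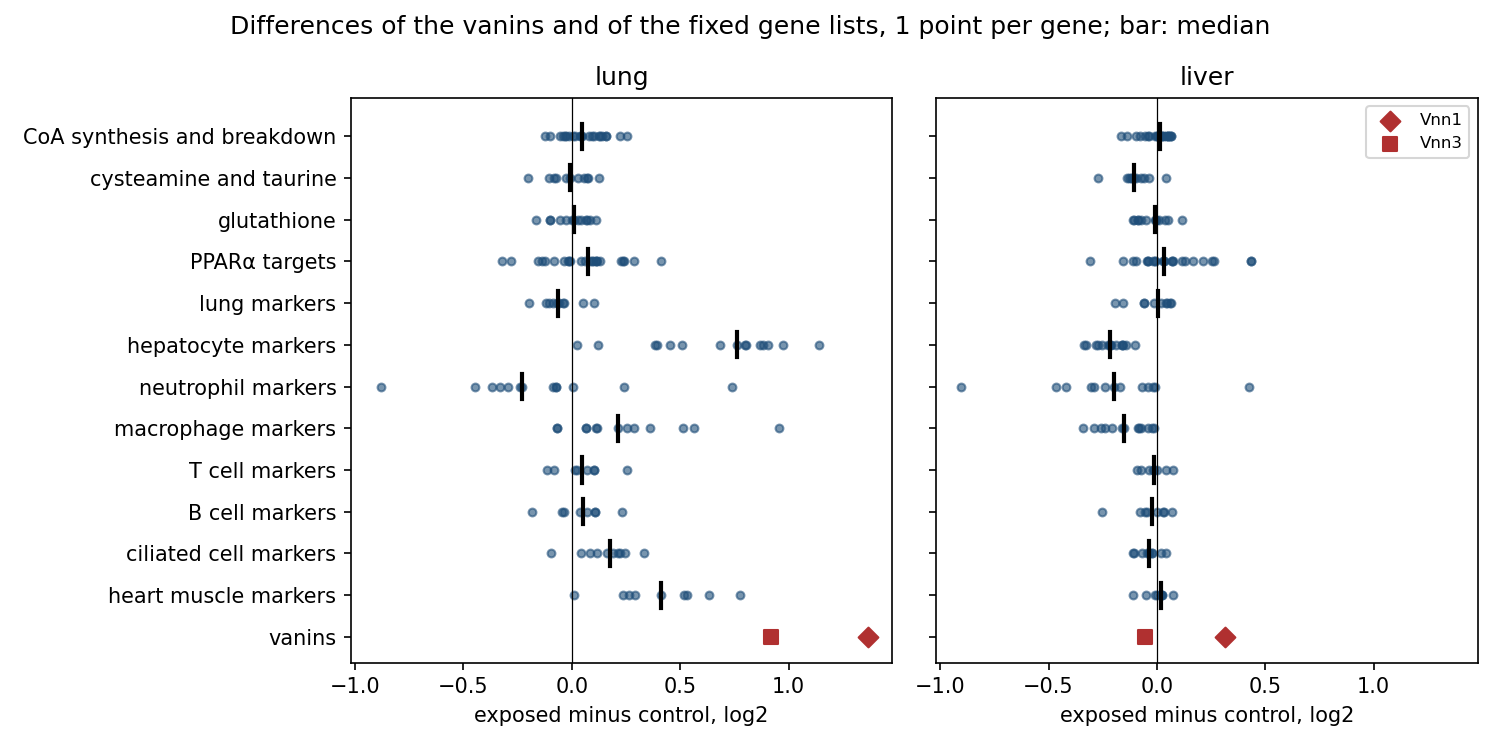
Differences between exposed and control mice on the log2 scale in lung (left) and liver (right), with 1 point per gene of each list, a bar at the median of the list, and the vanins in red in the bottom row. The CoA, cysteamine, glutathione and PPARα lists centre near 0 in lung, and the vanins lie at 0.92 and 1.37.

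The genes next to the pair on the chromosome did not show its lung difference. The measured genes on the Vnn3 side, Eya4, Rps12 and Slc18b1, differed by -0.01, -0.13 and 0.06 on the log2 scale in lung. Those on the Vnn1 side, the trace amine receptors Taar1, Taar2 and Taar4, differed by -0.05, 0.02 and -0.11, and none of the 6 was called. Rps12 and Slc18b1 were well above background on all 13 lung arrays, Taar4 on 11, Eya4 on 6, Taar2 on 2 and Taar1 on 0, so that the values of the last 3 carry little information.

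Over all 13 lung arrays the genes most like Vnn1, among 15182 measured, were Ly6f (Pearson r = 0.98), Noxo1 (0.98), Proz (0.97), D17H6S56E-5 (0.96) and Saa3 (0.96). Ly6f encodes a Ly6 family surface antigen, Noxo1 an organizer of NADPH oxidase, Proz the plasma protein Z and Saa3 an acute-phase serum amyloid. Those most like Vnn3 were Trem2 (0.97), Itih4 (0.96), Lcn2 (0.96), Ccl9 (0.95) and Lgi2 (0.94), of which Trem2 is a receptor of myeloid cells, Itih4 a plasma protein, Lcn2 an iron-siderophore binding protein and Ccl9 a chemokine. These 10 genes were themselves higher in exposed lungs, by 1.45-fold for Itih4 to 5.01-fold for Ly6f, so that the likeness holds the group difference. Vnn3 stood at place 11 for Vnn1 and Vnn1 at place 6 for Vnn3, with r = 0.94 between them.

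With the group means subtracted the likeness of the vanins to each other was low. The r between them was then 0.31, at place 3242 for Vnn1 and place 3797 for Vnn3. The genes most like Vnn1 were now Ipo11 (0.90), Bst2 (0.88), Ehmt2 (0.86), Dab2ip (0.86) and Trpc4ap (0.86), and those most like Vnn3 were Bbof1 (0.92), 2810416G20 (0.90), Rgs4 (0.90), Kctd17 (0.88) and Adora1 (0.88). None of these 10 had been among the genes most like either vanin before the subtraction. They are the highest of 15182 correlations over 13 arrays. Whether they exceed the highest that unrelated genes would give was not tested.

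Within each group the vanins were compared mouse by mouse, in 4 relations. Pearson's r was 0.21 in exposed lungs (exact permutation p = 0.65, adjusted 0.65) and Spearman's rho 0.14 (p = 0.78, adjusted 0.78), and r rose to 0.74 without the 2 mice farthest from the median of Vnn1. In control lungs r was 0.70 (exact permutation p = 0.11, adjusted 0.46) and rho 0.77 (p = 0.10, adjusted 0.41), and r was 0.72 without the 2 farthest mice. In exposed livers r was 0.37 (exact permutation p = 0.42, adjusted 0.65) and rho 0.29 (p = 0.56, adjusted 0.74), with r = 0.13 without the 2 farthest. In control livers r was 0.29 (exact permutation p = 0.49, adjusted 0.65) and rho 0.36 (p = 0.39, adjusted 0.74), with r = 0.47 without the 2 farthest. No relation passed the threshold with 6 to 8 mice, which does not show that the genes vary apart.

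Vnn1 was among the more variable genes of the liver. Its residual SD of 0.46 on the log2 scale was exceeded by 1.41% of probes, whereas that of Vnn3, 0.14, was exceeded by 39.5%. After this spread had been seen, Vnn1 was set against the mean of the 24 PPARα targets over the 15 livers, as 1 of 6 relations. With the group means subtracted, Pearson's r was 0.79 (permutation p = 0.00053, adjusted 0.0032) and Spearman's rho 0.85 (permutation p = 9.0e-05, adjusted 0.00054). Without the 2 livers farthest from the median of Vnn1, r was 0.68, and with slide means subtracted as well it was 0.81 over all 15.

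Within the groups the relation was less firm. In exposed livers r was 0.90 (exact permutation p = 0.019, adjusted 0.057) and rho 0.89 (p = 0.012, adjusted 0.037), and r fell to 0.45 without the 2 farthest livers, so that it rests on them. In control livers r was 0.71 (exact permutation p = 0.045, adjusted 0.089) and rho 0.81 (p = 0.022, adjusted 0.044), with r = 0.65 without the 2 farthest. For Vnn3 over the 15 livers r was 0.31 (permutation p = 0.26, adjusted 0.39) and rho 0.24 (permutation p = 0.40, adjusted 0.54), and r was 0.19 without the 2 farthest.

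Gene by gene, the r with Vnn1 over 15 livers was highest for Cyp4a14 (0.75), Acot1 (0.74), the carnitine carrier Slc25a20 (0.72) and Acot3 (0.71), and lowest for Pdk4, a pyruvate dehydrogenase kinase (-0.18). It was positive for 21 of 24 genes with a median of 0.45, beside 47.8% of 41108 probes other than Vnn1, with a median of -0.01. The targets were not taken out of these probes. Exposed mouse 12 had both the highest Vnn1 ratio in liver, 4.32, and the highest mean of the PPARα targets, 0.36 above their liver means.

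**Figure D5:**
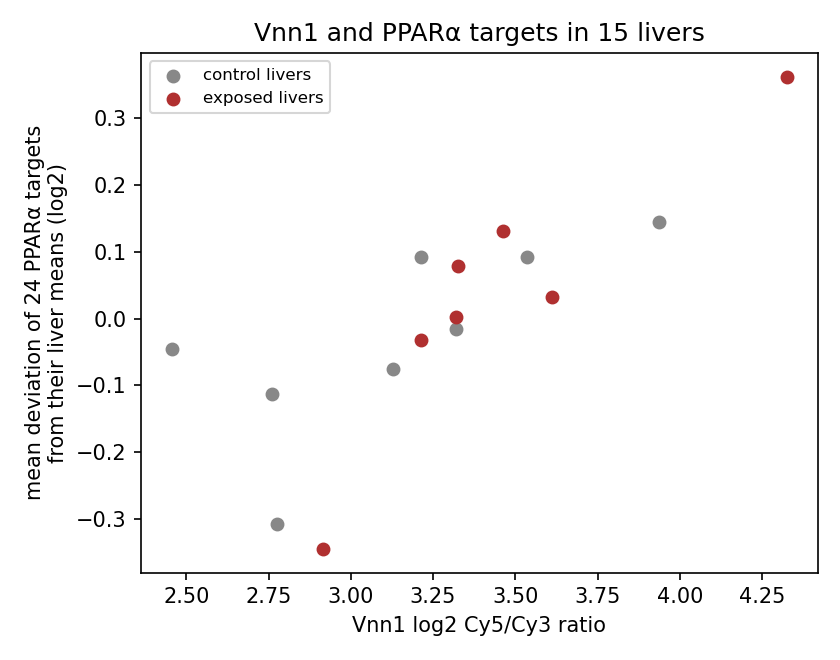
Mean deviation of 24 PPARα target genes from their liver means (log2, vertical) against the log2 Cy5/Cy3 ratio of Vnn1 (horizontal) in 15 livers, with control livers in grey and exposed livers in red. Livers with more Vnn1 had a higher mean of the targets, and the point at the upper right is exposed mouse 12.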

How the data were processed

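The authors deposited scanner output of 28 mRNA arrays as spot intensities, not normalized, and a table of log2 ratios that they had normalized by LOWESS. Per the file headers the software was Feature Extraction 9.5.3.1 with build mm7 (lung) and 10.1.1.1 with mm8 (liver). The 13 miRNA arrays were not used here. In R 4.3.3 with limma 3.58.1, median intensities were corrected by normexp (offset 50), fitted without spots marked as outliers. Loess within arrays followed, control spots and spots marked as feature outliers were dropped (those marked only for their local background were kept), and spots of a probe were averaged (41174 probes). Tests between groups used lmFit and eBayes with Benjamini-Hochberg adjustment over all probes (threshold 0.05). Levels of single channels used Aquantile. The methods' MAANOVA was not used here. Members, lists and this background model were chosen with earlier results of these data known.

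Named were both vanins, called genes and the extremes of each list, 3 measured neighbours on either side, and the 5 most correlated genes (unnamed transcripts left out), each by its brightest probe. Symbols came from RefSeq for 32719 probes. On simulated data 97.5% (lung), 98.5% (liver) and 99% (organs) of 200 added log2 changes of 1 were called. These shares are averages over randomly drawn probes, with no slide effect simulated. They do not carry over to Vnn1 in liver, whose residual SD of 0.46 was exceeded by only 1.41% of probes. Organs were paired by mouse, being of the same animal. The 12 pairs' deviations correlated at -0.07 to 0.21. The number of arrays limits the precision.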

Additional observations from a re-analysis of the deposited data

Results flagged for a closer look

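One of 8 sets of vanin values (each gene in each of the 4 groups) held a single value far from the rest. Vnn3 in the control lung of mouse 32 had a log2 ratio of 1.805, against 1.43 for the nearest and 1.20 for the lowest control lung. Chance gives such a value in about 1 of 20 sets. The Cy3 signal of this spot was 58 and not well above background, and its Cy5 signal of 341 was well above it. Without this mouse the lung difference of Vnn3 was 1.00 on the log2 scale, as against 0.92 with it.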

How the results depend on the processing

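Fitting normexp on all spots moved most values: the lung difference (log2) was 0.81 for Vnn1 and 0.29 for Vnn3, 15 probes were called in lung as against 91, Vnn1 in liver was 0.97 and Vnn3 turned to 0.87 (limma, adjusted p = 0.51 for both), and control lung minus control liver was -0.68 for Vnn1 and -2.28 for Vnn3. The fitted background mean of Cy5 was then -609 in the exposed lung of mouse 23 and -972 in the control liver of mouse 24. It was -5.39 in the exposed lung of mouse 20. The scanner software's processed signals gave 0.24 for Vnn3 in lung. Median centring gave 0.061 for Vnn3 in liver (limma, adjusted p = 0.83) and 7 probes called in lung. The cause was not tested. All other alternatives kept the direction of the lung and organ values, and the liver values stayed short of the threshold under each, with Vnn1 in lung from 1.33 to 1.43 and Vnn3 from 0.86 to 0.95, and each list kept its count of calls without background correction. Over 8 alternatives the organ difference ran from -1.57 to -0.68 for Vnn1 and from -3.44 to -2.06 for Vnn3. With mouse as a replicate block, the organ differences were -1.10 for Vnn1 and -3.12 for Vnn3, and 23339 probes were called as against 24700. Leaving out 1 array at a time gave 1.30 to 1.41 for Vnn1 and 0.87 to 1.00 for Vnn3 in lung with 70 to 92 probes called, 0.17 to 0.43 and -0.08 to -0.02 in liver with 0 called, and -1.35 to -1.14 and -3.16 to -3.04 between organs with 23943 to 24800 called. The correlation with slide means subtracted was added after the data were seen. The dim reference signal limits Vnn3 in lung.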
